A study of Mus musculus with 18 samples.

Results

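The mRNA of 10 voltage-gated calcium channel subunits was followed across forebrain, midbrain and hindbrain of *Fmr1*CRE and wild-type mice. The members were a list of gene symbols, matched to the Ensembl identifiers of the count table through GENCODE M21. They were the pore-forming subunits *Cacna1a*, *Cacna1b*, *Cacna1c*, *Cacna1d*, *Cacna1e*, *Cacna1g*, *Cacna1h* and *Cacna1i* and the auxiliary alpha-2-delta subunits *Cacna2d1* and *Cacna2d2*, 10 of 53468 genes counted. All 10 passed the filter on low counts in every comparison. *Fmr1*CRE mice carry a single-base change knocked in by genome editing at the mouse position orthologous to a human regulatory variant near *FMR1*, on a C57BL/6 background, and the line used for sequencing was not named. The wild-type mice carry no edit, and the mice were male by the study's text. Poly(A) RNA came from 3 *Fmr1*CRE and 3 wild-type mice of 1 litter at postnatal day 25, with no drug or other treatment named. Each mouse gave 1 library per region, so that there were 6 groups of 3 libraries, and total counts lay between 22455512 and 28061185 per library.

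A voltage-gated calcium channel is built around a pore-forming subunit that senses membrane depolarization and lets calcium in. The L-type Cav1 channels couple activity to gene regulation and pacemaking, the Cav2 channels open at presynaptic active zones to trigger transmitter release, and the T-type Cav3 channels open near rest and drive burst firing. Alpha-2-delta subunits bind the outside of Cav1 and Cav2 channels and raise their number at the membrane.

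Before the values, some limits of the libraries apply to all of them. Forebrain and hindbrain markers were highest in the libraries of those names, with summed hindbrain markers (7 *Hox* genes and Gabra6) at 0 to 4.57 CPM, which are counts relative to the TMM-scaled library size, in forebrain, where 1 of the 8 was at 0 in all libraries, and 220 to 418 CPM in hindbrain. The midbrain libraries also held them, at 35.9 to 95.6 CPM. Midbrain libraries held midbrain markers at 34.2 to 71.2 CPM, against 21.0 to 29.3 CPM in hindbrain. Of these markers, *Otx2* and *Barhl2* had higher medians in hindbrain (9.16 and 7.07 CPM) than in midbrain (6.16 and 4.19 CPM). The others had higher medians in midbrain, with *Gata3* highest at 12.8 CPM. *Gata2* was at 4.85 CPM there and 4.43 CPM in forebrain. Midbrain libraries also held cortical and hippocampal excitatory markers at 565 to 1074 CPM, which overlapped the 930 to 1184 CPM of forebrain. Cerebellar granule cell markers were at 299 to 671 CPM in midbrain. Of 49 genes that differed by at least 2 on the log2 scale between the mice numbered 3 in both midbrain and hindbrain, 17 differed by at least 2 in the opposite direction in forebrain and 8 in the same direction. For the mice numbered 1 these counts were 9 and 16 of 49, and for those numbered 2 they were 8 and 10 of 46. The forebrain libraries numbered 3 were used with their labels as given, and whether these labels were exchanged between the genotypes was not tested. An exchange would alter every forebrain genotype value below. It would also put these libraries with the wrong mouse. That would alter the region tests with the mouse as a block, the counts of mice, the sums per mouse and the interaction test. Results are therefore also given without the mice numbered 3 where this changed a call, and for *Cacna1g* and *Cacna1h* in forebrain. *Fmr1* itself stood at 75.7 ± 2.57 CPM (SD, n = 3) in *Fmr1*CRE and 77.7 ± 7.52 CPM (SD, n = 3) in wild-type forebrain, so its level did not check the labels. The libraries were sequenced in pools, and which library was in which pool was not given.

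The pore subunits are paralogs, and reads of 50 bases can fall in stretches that they share. Exact runs in coding sequence between members of a family are printed here because they mark where an estimated count could be split between genes. In each line the capitals mark the shared run, with 15 bases on either side in lower case, read 5′ to 3′ along the coding strand from GENCODE M21 transcripts. The run of 68 bases between the T-type genes *Cacna1g* (GRCm38 chr11:94443187-94443254, minus strand) and *Cacna1i* (chr15:80369688-80369755, plus strand) lies within 1 coding exon of each.
Cacna1g: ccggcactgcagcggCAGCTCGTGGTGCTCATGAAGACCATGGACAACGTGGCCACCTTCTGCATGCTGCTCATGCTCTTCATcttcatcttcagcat
Cacna1i: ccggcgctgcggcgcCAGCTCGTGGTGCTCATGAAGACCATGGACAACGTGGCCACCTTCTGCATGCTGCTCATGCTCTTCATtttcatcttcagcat
The run of 50 bases between *Cacna1h* (chr17:25383183-25383232, minus strand) and *Cacna1i* (chr15:80378189-80378238, plus strand) is as long as a read.
Cacna1h: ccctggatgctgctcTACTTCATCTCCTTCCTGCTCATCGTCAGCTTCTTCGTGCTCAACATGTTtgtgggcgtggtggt
Cacna1i: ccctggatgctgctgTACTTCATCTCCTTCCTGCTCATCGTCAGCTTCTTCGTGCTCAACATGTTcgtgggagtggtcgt
The L-type genes *Cacna1c* (chr6:118654366-118654408, minus strand) and *Cacna1d* (chr14:30099154-30099196, minus strand) share 43 bases at most, less than a read.
Cacna1c: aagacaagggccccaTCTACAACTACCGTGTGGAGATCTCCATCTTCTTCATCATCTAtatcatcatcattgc
Cacna1d: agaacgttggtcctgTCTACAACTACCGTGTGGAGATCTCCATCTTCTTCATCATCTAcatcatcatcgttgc
The run between *Cacna1a* (chr8:84533418-84533452, plus strand) and *Cacna1b* (chr2:24721353-24721387, minus strand) is 35 bases.
Cacna1a: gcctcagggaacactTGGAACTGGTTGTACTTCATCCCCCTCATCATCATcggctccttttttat
Cacna1b: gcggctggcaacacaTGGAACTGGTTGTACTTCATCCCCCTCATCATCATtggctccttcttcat
All 8 of these stretches lie in coding sequence. A run of 46 bases between *Cacna1b* and *Cacna1e*, which is a GT repeat, and one of 41 bases between *Cacna1g* and *Cacna1h*, which spans 2 exons, are not shown. They are a small part of the genes: between 0.159% of 31-base windows in *Cacna1c* and 4.71% in *Cacna1d* also occur in some other gene. For *Cacna1d* the other gene is chiefly *Chdh* (4.37% of windows), which overlaps it on the opposite strand, and for *Cacna1a* it is chiefly *Gm16183* (3.01%), also on the opposite strand. The strand setting of the counting was not given in the sources used here, so reads in those overlaps may belong to either gene.

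Of the 10 members, 6 had higher mRNA in forebrain than in hindbrain and 0 had lower, in edgeR's quasi-likelihood test with Benjamini-Hochberg adjustment over 20363 genes and the mouse as a block. These were *Cacna1b*, *Cacna1c*, *Cacna1e*, *Cacna1h*, *Cacna1i* and *Cacna2d1*. The same test called 25.7% of all genes higher in forebrain and 24.4% lower. The median log2 fold change over the 10 members was 0.996, against -0.01 over all genes tested. Of the 10 members, 5 were called higher with a log2 fold change of at least 1, as were 10.4% of all genes. In 6 of the 10, the same 6 that were called, every forebrain library lay above every hindbrain library, as in 14.7% of all genes. These counts rest on the same libraries as the test.

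Against hindbrain, midbrain gave the same 6 genes as higher and 0 as lower, where 24.6% of all genes were called higher and 22.9% lower. The median of the members was 1.16, and -0.03 over all genes. Of the 10 members, 6 were called higher with a log2 fold change of at least 1, as were 8.34% of all genes. In 5 of the 10 every midbrain library lay above every hindbrain library, as in 16% of all genes. These comparisons share the hindbrain libraries. Between forebrain and midbrain 0 of the 10 members passed in edgeR, where 17% of all genes did, and 2 members had an unadjusted p under 0.05, as had 31.3% of all genes. With scaling by total counts edgeR called 2 members, and 3936 of 20363 genes. DESeq2 called 1 member, *Cacna2d2* (adjusted p = 0.0491), and its count over all genes is not given here.

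Total counts as the only scaling moved the median of all genes between forebrain and hindbrain by -0.14 on the log2 scale, and the share of called genes that were higher in forebrain from 51.4% to 38.9%. In forebrain against midbrain that share went from 47.4% to 30.9%. The 6 members remained higher than in hindbrain under that scaling in both comparisons. In bulk tissue, fewer cells of a type and less RNA per cell cannot be told apart. Summed markers of neurons in general (6 genes) were at 3375 to 4221 CPM in forebrain, 3795 to 4469 CPM in midbrain and 3374 to 3625 CPM in hindbrain. The genes in this sum went different ways. *Syt1* was at 738 to 1111 CPM in forebrain and 172 to 221 CPM in hindbrain, and *Rbfox3* at 197 to 277 and 92.4 to 132 CPM. *Snap25* was at 1357 to 1632 and 1798 to 2039 CPM. *Tubb3* and *Stmn2* had higher medians in hindbrain than in forebrain, and *Eno2* had 519 and 518 CPM in forebrain and hindbrain. Oligodendrocyte markers (6 genes) were at 12869 to 16409 CPM in forebrain, 16967 to 20182 CPM in midbrain and 29513 to 41452 CPM in hindbrain. Purkinje cell markers (6 genes) were at 338 to 608 CPM in forebrain and at 1033 to 2017 CPM in hindbrain. The 582 to 1223 CPM of midbrain overlapped both. Of these genes *Itpr1* alone was at 283 to 547 CPM in forebrain, and it overlapped across regions. *Pcp2* was at 0 to 1.36 CPM in forebrain, 25.3 to 90.8 CPM in midbrain and 101 to 238 CPM in hindbrain, without overlap. In these lists no gene was at 0 in all libraries of a region. Their part in the regional differences was not tested.

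**Figure D1:**
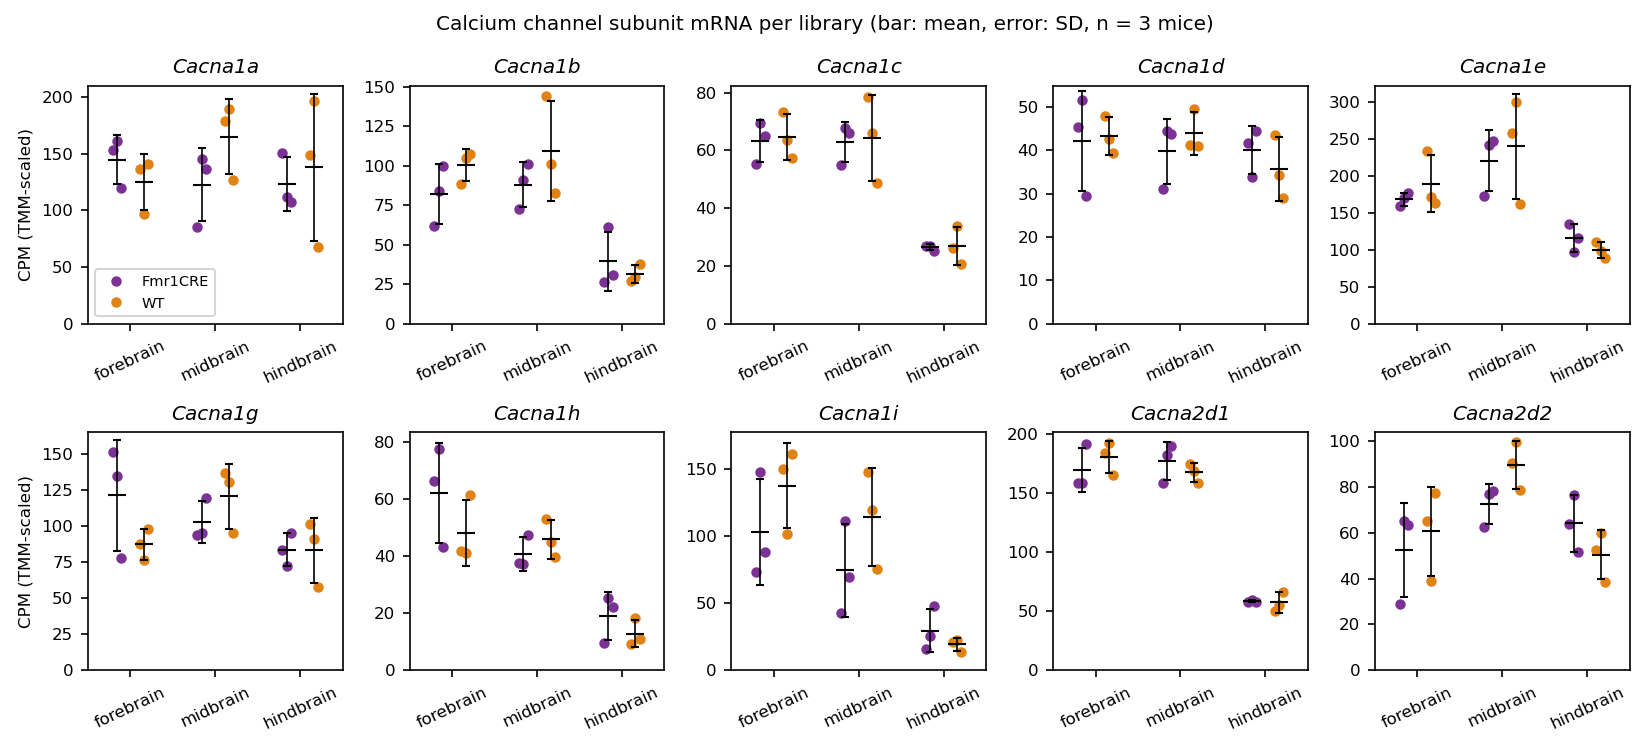
CPM of each of the 10 genes (vertical axis, from 0, scaled with TMM) in every library, by region (horizontal axis) and genotype (purple *Fmr1*CRE, orange wild type), with the mean as a bar and the SD of 3 mice as the error. In *Cacna1b*, *Cacna1c*, *Cacna1e*, *Cacna1h*, *Cacna1i* and *Cacna2d1* all hindbrain libraries sit below all forebrain libraries, and the genotypes overlap in all panels but that of *Cacna2d2* in midbrain.

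Among the Cav1 genes, *Cacna1c* changed with region and *Cacna1d* did not pass the test. *Cacna1c* (ENSMUSG00000051331, GRCm38 chromosome 6, 118587240 to 119196418, minus strand) encodes the L-type pore that is most abundant in heart, smooth muscle and most neurons. The 6 hindbrain libraries held 20.8 to 33.8 CPM (median 26.6), the midbrain libraries 48.7 to 78.5 CPM (median 65.9) and the forebrain libraries 55.3 to 73.2 CPM (median 64.3). Every hindbrain library lay below every library of the other regions, and forebrain and midbrain overlapped. The log2 fold change of forebrain against hindbrain was 1.26 ± 0.09 (SE; adjusted p = 4.88e-08 in edgeR), a 2.40-fold difference, and that of midbrain against hindbrain was 1.25 ± 0.09 (adjusted p = 1.11e-07). Forebrain and midbrain differed by 0.02, with a 95% confidence interval from -0.17 to 0.20.

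*Cacna1d* (ENSMUSG00000015968, chromosome 14, 30039939 to 30491455, minus strand) encodes the L-type pore that opens at more negative potentials and serves pacemaking. Its 18 libraries overlapped across regions, with 29.0 to 44.5 CPM in hindbrain (median 38.1), 31.1 to 49.6 CPM in midbrain (median 42.4) and 29.5 to 51.7 CPM in forebrain (median 44.0). The forebrain against hindbrain difference was 0.17 on the log2 scale, with a confidence interval from -0.14 to 0.49 and an adjusted p of 0.351 in edgeR. The interval leaves out the 1.26 measured for *Cacna1c*.

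The Cav2 genes differed among themselves. *Cacna1b* (ENSMUSG00000004113, chromosome 2, 24603887 to 24763152, minus strand), the pore of N-type channels, stood at 26.4 to 61.2 CPM in hindbrain (median 30.2), at 72.3 to 144 CPM in midbrain (median 96.0) and at 62.0 to 107 CPM in forebrain (median 94.2). In hindbrain 5 of the 6 libraries lay at or under 37.7 CPM, and the highest, *Fmr1*CRE replicate 2 at 61.2 CPM, came within 1 CPM of the lowest forebrain library. Forebrain exceeded hindbrain by 1.38 ± 0.19 (SE; adjusted p = 3.83e-05 in edgeR), 2.61-fold, and midbrain exceeded it 2.82-fold (adjusted p = 3.03e-05). Forebrain and midbrain differed by -0.12, with a confidence interval from -0.51 to 0.28.

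*Cacna1e* (ENSMUSG00000004110, chromosome 1, 154390731 to 154884501, minus strand), the pore of R-type channels, had its highest mean in midbrain. Midbrain libraries held 162 to 300.1 CPM (median 245), forebrain libraries 159 to 234 CPM (median 171) and hindbrain libraries 88.5 to 135 CPM (median 105). Hindbrain lay below the other regions in all libraries, while forebrain and midbrain overlapped. The log2 fold change was 0.73 ± 0.13 (SE; adjusted p = 0.000416 in edgeR) for forebrain against hindbrain and 1.08 ± 0.13 (adjusted p = 2.21e-05) for midbrain against hindbrain. In *Fmr1*CRE mice alone the forebrain against hindbrain difference was 0.50, with an adjusted p of 0.0651. Midbrain was higher than forebrain in 5 of 6 mice, by 1.28-fold, with an adjusted p of 0.0831, which fell to 0.0392 without *Fmr1*CRE replicate 1 and to 0.0248 with total counts as the scaling.

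*Cacna1a* (ENSMUSG00000034656, chromosome 8, 84388440 to 84640246, plus strand) encodes the pore of P/Q-type channels, which trigger release at most fast central synapses and are dense in Purkinje cells. Hindbrain had the widest range, 68.0 to 197 CPM (median 131), against 85.6 to 189 CPM in midbrain (median 141) and 96.4 to 161 CPM in forebrain (median 139). The lowest and the highest hindbrain libraries, wild-type replicates 3 and 2, differed 2.89-fold. The regions overlapped, and the forebrain against hindbrain difference was 0.11, with a confidence interval from -0.36 to 0.58 and an adjusted p of 0.717 in edgeR. That interval leaves out the 1.38 measured for *Cacna1b*.

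Of the Cav3 genes, *Cacna1i* and *Cacna1h* carried the largest and the next largest forebrain against hindbrain difference among the 10 members, and *Cacna1g* did not pass. *Cacna1i* (ENSMUSG00000022416, chromosome 15, 80287238 to 80398279, plus strand), a T-type pore known from the thalamic reticular nucleus and cortex, stood at 13.9 to 47.4 CPM in hindbrain (median 21.8), 42.6 to 147 CPM in midbrain (median 93.1) and 73.2 to 161 CPM in forebrain (median 124). Forebrain and hindbrain did not overlap, while the lowest midbrain library, *Fmr1*CRE replicate 1 at 42.6 CPM, lay below the highest hindbrain library, *Fmr1*CRE replicate 3 at 47.4 CPM. The forebrain against hindbrain difference was 2.33 ± 0.29 (SE; adjusted p = 1.48e-05 in edgeR), 5.02-fold, and the midbrain against hindbrain difference 1.92 ± 0.29 (adjusted p = 0.000107), 3.78-fold.

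*Cacna1h* (ENSMUSG00000024112, chromosome 17, 25374285 to 25433783, minus strand), a T-type pore of dentate granule cells and sensory neurons, held 9.34 to 25.3 CPM in hindbrain (median 14.6), 37.3 to 53.1 CPM in midbrain (median 42.3) and 41.1 to 77.5 CPM in forebrain (median 52.2). No hindbrain library reached a library of the other regions. Forebrain exceeded hindbrain by 1.84 ± 0.25 (SE; adjusted p = 3.25e-05 in edgeR), 3.58-fold, and midbrain did by 1.52 ± 0.25 (adjusted p = 0.000217). In hindbrain the highest library was 2.71 times the lowest, on raw counts of 252 to 702.

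*Cacna1g* (ENSMUSG00000020866, chromosome 11, 94408391 to 94474198, minus strand), a T-type pore of thalamic relay and cerebellar neurons, held 57.7 to 101 CPM in hindbrain (median 86.9), 93.8 to 137 CPM in midbrain (median 107) and 76.8 to 151 CPM in forebrain (median 92.9). The regions overlapped. Midbrain was higher than hindbrain in 6 of 6 mice, by 0.43 ± 0.19 (SE) on the log2 scale, with an adjusted p of 0.0692 in edgeR. The forebrain against hindbrain difference was 0.33, with a confidence interval from -0.07 to 0.74, below that of *Cacna1i*, which ran from 1.70 to 2.95.

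The alpha-2-delta genes went apart. *Cacna2d1* (ENSMUSG00000040118, chromosome 5, 15934691 to 16374511, plus strand), which binds gabapentin, had the smallest coefficient of variation of the members in each region, at 9.08% in forebrain, 7.31% in midbrain and 9.47% in hindbrain. Hindbrain libraries held 49.9 to 66.8 CPM (median 58.0), midbrain libraries 159 to 190 CPM (median 172) and forebrain libraries 159 to 192 CPM (median 175). Every hindbrain library lay below the other regions, which overlapped. The forebrain against hindbrain difference of 1.59 ± 0.08 (SE; adjusted p = 3.27e-09 in edgeR), 3.02-fold, had the lowest p-value of the 10, as had the midbrain against hindbrain difference of 1.57 ± 0.08 (adjusted p = 9.23e-09). Forebrain and midbrain differed by 0.02, with a confidence interval from -0.15 to 0.20.

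*Cacna2d2* (ENSMUSG00000010066, chromosome 9, 107399612 to 107529343, plus strand) is the gene mutated in ducky mice and is strong in Purkinje cells. Midbrain libraries held 62.3 to 99.6 CPM (median 78.4), forebrain libraries 29.0 to 77.2 CPM (median 64.2) and hindbrain libraries 38.7 to 76.5 CPM (median 56.3). Midbrain exceeded forebrain in 6 of 6 mice, though the regions overlapped. The difference of forebrain against midbrain was -0.54 ± 0.21 (SE), with an adjusted p of 0.0935 in edgeR, and an adjusted p of 0.0491 in DESeq2, 0.0446 in edgeR with total counts and 0.0453 in edgeR without wild-type replicate 3. Midbrain exceeded hindbrain by 0.49 ± 0.21, with an adjusted p of 0.0709, and of 0.0218 without *Fmr1*CRE replicate 1, 0.0495 in DESeq2, 0.0446 without the mouse as a block and 0.0450 in wild-type mice alone. Forebrain and hindbrain differed by -0.05, with a confidence interval from -0.51 to 0.40 that leaves out the 1.59 of *Cacna2d1*.

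**Figure D2:**
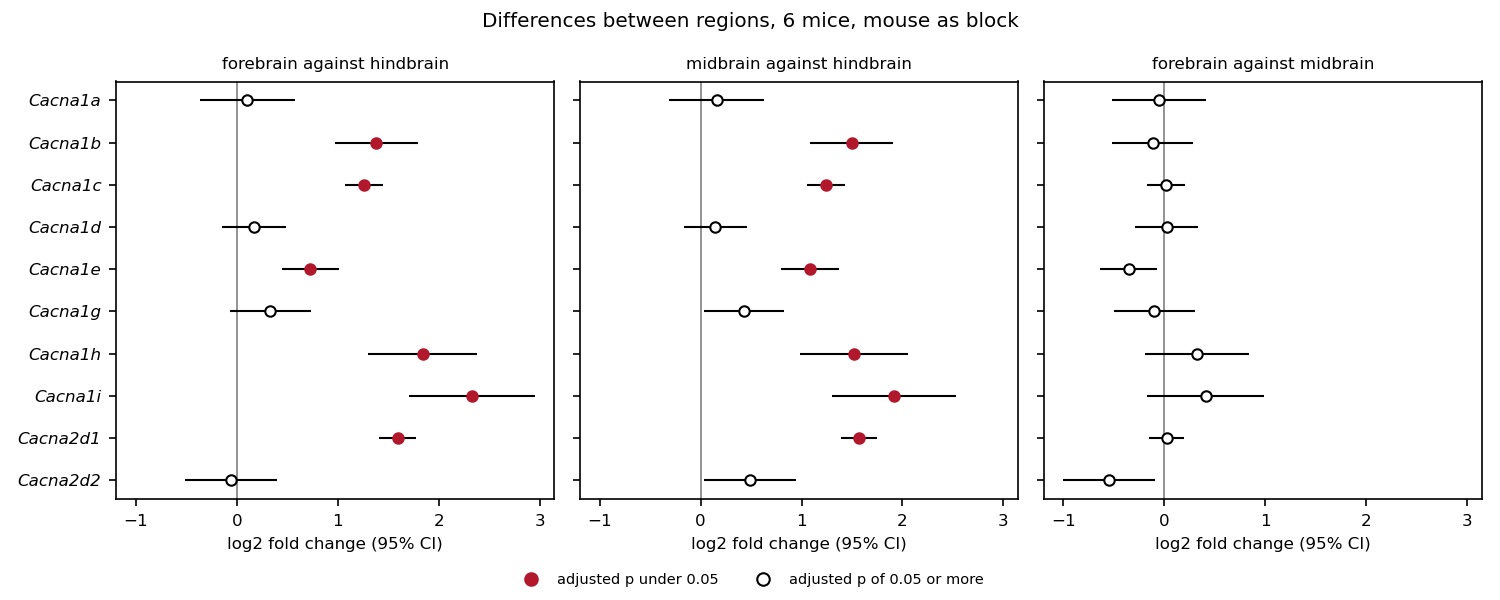
Log2 fold changes between regions (horizontal axis, the same in all panels) for the 10 genes (rows), with 95% confidence intervals as lines, from edgeR over 6 mice with the mouse as a block. Filled red points have an adjusted p under 0.05, which are the same 6 genes in both comparisons with hindbrain and 0 genes between forebrain and midbrain.

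Promoters are shown for the member with the largest regional difference and for the alpha-2-delta pair, whose regional patterns went apart. They run from 250 bases before to 50 bases after the start of the gene in RefSeq, build GRCm38.p6, on the plus strand, and 7 of the 10 members had an entry. Capitals mark the GC box GGGCGG or its reverse complement CCGCCC. The windows are chr15:80286988-80287287 for *Cacna1i*, chr5:15934441-15934740 for *Cacna2d1* and chr9:107399630-107399929 for *Cacna2d2*.
Cacna1i: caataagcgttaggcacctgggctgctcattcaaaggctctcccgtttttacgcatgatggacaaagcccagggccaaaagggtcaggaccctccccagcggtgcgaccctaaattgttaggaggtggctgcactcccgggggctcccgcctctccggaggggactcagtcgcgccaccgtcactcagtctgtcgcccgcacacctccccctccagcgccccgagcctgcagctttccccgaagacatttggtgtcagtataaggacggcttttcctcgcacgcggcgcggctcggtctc
Cacna2d1: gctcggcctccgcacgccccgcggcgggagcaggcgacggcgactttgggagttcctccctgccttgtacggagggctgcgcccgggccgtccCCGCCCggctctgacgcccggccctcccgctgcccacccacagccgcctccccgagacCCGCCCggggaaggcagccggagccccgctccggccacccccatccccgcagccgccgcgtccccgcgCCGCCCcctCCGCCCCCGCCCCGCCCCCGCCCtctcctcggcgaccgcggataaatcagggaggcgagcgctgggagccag
Cacna2d2: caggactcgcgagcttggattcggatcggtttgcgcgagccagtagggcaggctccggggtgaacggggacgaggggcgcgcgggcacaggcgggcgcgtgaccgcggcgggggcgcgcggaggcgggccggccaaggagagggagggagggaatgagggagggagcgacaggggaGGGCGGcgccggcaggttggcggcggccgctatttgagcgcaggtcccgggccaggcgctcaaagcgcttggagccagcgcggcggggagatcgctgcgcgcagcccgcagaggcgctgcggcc
The *Cacna2d1* window held 7 GC boxes on either strand, that of *Cacna2d2* held 1, and that of *Cacna1i* held 0. Of 32851 promoter windows of the same length, 35.7% held at least 1. The windows were 80% G or C for *Cacna2d1*, 75.7% for *Cacna2d2* and 62.7% for *Cacna1i*, against a median of 52.7% over all windows. *Cacna1a*, *Cacna1g* and *Cacna1h* had no entry.

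Levels of different genes can be compared only per length, and for these genes the order depended on the length used. The level was the count per kilobase, rescaled to the same sum over all genes in every library as TPM has, with the mean effective length that the transcript abundances gave over all 18 libraries. On that scale *Cacna1a* led in every region, with 64.7 ± 21.9 in hindbrain, 85.5 ± 28.9 in midbrain and 61.8 ± 11.9 in forebrain (SD, n = 6), above the next member in 6 of 6 mice with no overlap. In forebrain the next were *Cacna1i* at 15.6 ± 5.46, *Cacna1g* at 14.8 ± 3.98, *Cacna2d1* at 14.3 ± 2.28 and *Cacna1b* at 13.3 ± 2.65, which overlapped each other. In hindbrain *Cacna1g* followed *Cacna1a* at 12.8 ± 2.26, above *Cacna1b* at 5.74 ± 2.90 in 6 of 6 mice though with overlap. *Cacna1c* was last in every region, with 1.05 ± 0.21 in hindbrain.

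The lead of *Cacna1a* in forebrain and midbrain rested on its short effective length. That length was 858 bases, since 77.0% of the gene's TPM was assigned to *Cacna1a-205*, a processed transcript without an annotated coding sequence, while the longest annotated transcript has 7926 bases. With the longest transcript of each gene in place of the effective length, *Cacna2d1* led in forebrain at 45.9 ± 4.86 and in midbrain at 52.6 ± 4.42, with *Cacna1a* next at 33.1 ± 5.67 and 41.2 ± 11.1. In hindbrain *Cacna1a* still came first at 33.2 ± 11.5, overlapping *Cacna1g* at 20.0 ± 3.77. Transcripts without a coding sequence also led for *Cacna1g*, where *Cacna1g-213* took 42.1% of the TPM, and for *Cacna1i*, where *Cacna1i-206* took 54.0%. For *Cacna1d*, *Cacna1d-210*, annotated for nonsense-mediated decay, led at 21.1%. *Cacna1d-212* and *Cacna1d-203*, annotated with a retained intron, took 20.5% and 14.9%, and the protein-coding *Cacna1d-207* took 13.1%. These are means over the 18 tables, and the share of *Cacna1i-206* ran from 0% to 83.6%, so it did not lead in all of them. The effective length of *Cacna1i* ran from 1356 to 4392 bases around the mean of 3060 bases that was used. By contrast a protein-coding transcript took 80.3% for *Cacna2d1* (*Cacna2d1-202*), 70.0% for *Cacna1c* (*Cacna1c-207*) and 67.7% for *Cacna1e* (*Cacna1e-203*).

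As shares of the summed per-length level of the 8 pore subunits, *Cacna1a* took more in hindbrain than in the other regions under every length tried. It took 64.9% ± 7.37 in hindbrain, 51.4% ± 2.77 in midbrain and 49.8% ± 3.45 in forebrain (SD, n = 6). With the longest transcript its shares were 33.9% ± 7.11, 22.2% ± 2.00 and 21.4% ± 2.19. Its share was higher in hindbrain than in forebrain in 6 of 6 mice with both lengths, with no overlap of the libraries. The CPM of *Cacna1a* did not pass between these regions, and 5 of the other 7 pore subunits were lower in hindbrain. *Cacna1i* took 3.58% ± 1.87 in hindbrain, 9.19% ± 2.07 in midbrain and 12.4% ± 3.10 in forebrain, and 5.20%, 11.5% and 15.4% with the longest transcript. The share of the 3 Cav3 genes together was 18.5% ± 3.94 in hindbrain, where *Cacna1g* alone had 13.4% ± 2.02, 24.9% ± 1.12 in midbrain and 28.1% ± 2.35 in forebrain.

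The Cav2 share was 66.4% ± 2.36 in forebrain and 75.9% ± 4.76 in hindbrain, and it was higher in hindbrain in 5 of 6 mice with overlap. With the longest transcript it was 48.8% ± 3.62 and 57.2% ± 4.65. The Cav1 share had means of 5.61% in hindbrain, 5.35% in midbrain and 5.51% in forebrain, and ran from 3.98% to 6.89% in hindbrain libraries and from 4.38% to 6.74% in the others. With the union of exons as the length it was 11.98% in hindbrain and 10.2% in midbrain, lower in midbrain in 6 of 6 mice though with overlap. Within the alpha-2-delta pair, *Cacna2d2* took 52.0% ± 6.84 of the per-length level in hindbrain, 34.3% ± 3.58 in midbrain and 26.1% ± 6.95 in forebrain. Its share was higher in hindbrain than in forebrain in 6 of 6 mice, without overlap, and with the longest transcript it went from 28.7% to 55.3%. No test was made of the shares.

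**Figure D3:**
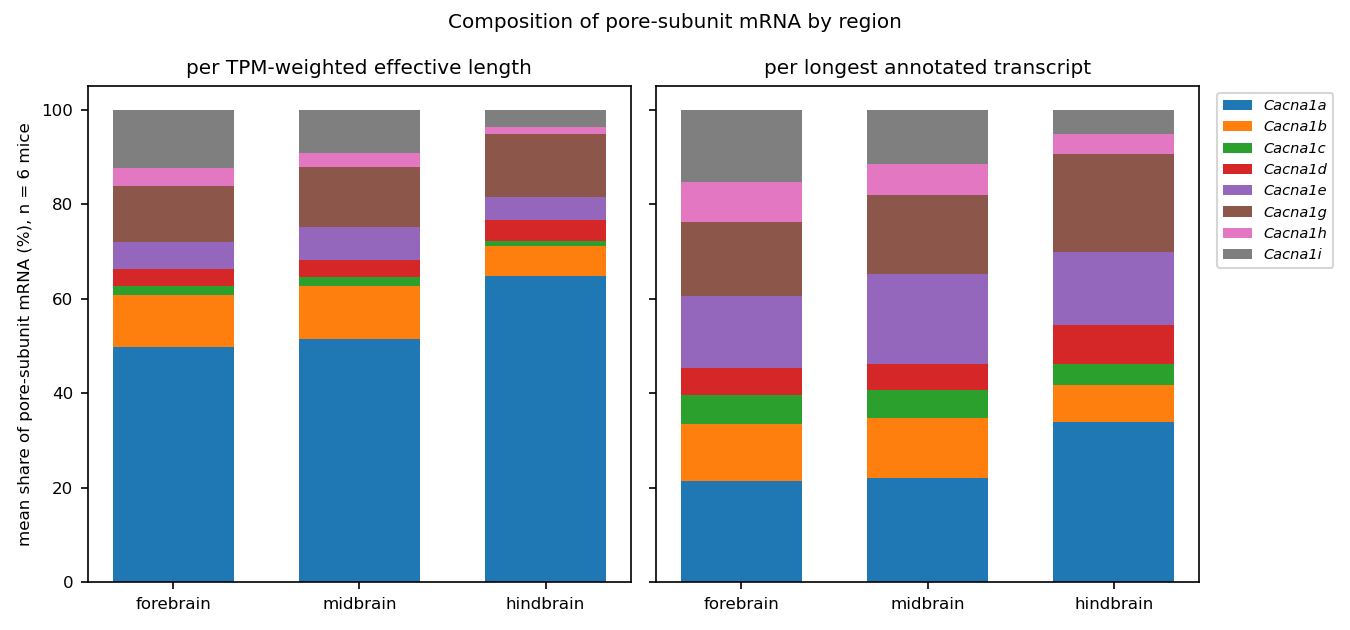
Mean share of each pore subunit (stacked bars, 6 mice, adding to 100%) in the summed per-length level of the 8 pore-subunit genes by region, with the effective length on the left and the longest annotated transcript on the right. *Cacna1a* (blue, bottom) is widest in hindbrain on both sides, at 64.9% and 33.9%, and *Cacna1i* (grey, top) is narrowest there, at 3.58% and 5.20%.

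Between genotypes, 0 of the 10 members passed in any region. The comparison asks whether the knock-in changes the expression of these genes at postnatal day 25. In forebrain edgeR called 0% of 18467 genes and 0 members, with 0 members at an unadjusted p under 0.05, where 5.43% of all genes were, and 0 without overlap between genotypes, where 10.3% were. In midbrain it called 0.00543% of 18400 genes and 0 members, with 1 member at an unadjusted p under 0.05, where 6.17% of all genes were. In hindbrain it called 0% of 19112 genes and 0 members, with 0 at an unadjusted p under 0.05 (5.13% of all genes) and 0 without overlap (10.9%). DESeq2 also called 0 members in every region. The members' log2 fold changes lay between -0.17 and 0.61 in hindbrain, between -0.61 and 0.08 in midbrain and between -0.39 and 0.51 in forebrain. Their medians were 0.18, -0.20 and -0.03, against -0.01, 0.00 and 0.00 over all genes.

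The member with an unadjusted p under 0.05 was *Cacna2d2* in midbrain. It stood at 62.3, 76.8 and 78.2 CPM in *Fmr1*CRE mice and at 90.5, 99.6 and 78.7 CPM in wild-type mice. The genotypes did not overlap, by a gap of less than 1 CPM, and 11.3% of all genes had no overlap in midbrain. The log2 fold change was -0.31 ± 0.12 (SE), with an unadjusted p of 0.0392 and an adjusted p of 0.806 in edgeR. The exact permutation test on both sides gave p = 0.1, the smallest that 3 mice against 3 allow. In forebrain it was -0.18 (confidence interval -0.96 to 0.59) and in hindbrain 0.33 (-0.13 to 0.79).

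For *Cacna1a*, midbrain held 85.6, 145 and 136 CPM in *Fmr1*CRE mice and 179, 189 and 127 CPM in wild-type mice, with overlap and a log2 fold change of -0.43 (confidence interval -0.93 to 0.08; adjusted p = 0.814 in edgeR). In hindbrain its *Fmr1*CRE libraries, at 151, 112 and 107 CPM, all lay inside the wild-type range set by 149, 197 and 68.0 CPM. There the confidence interval ran from -0.97 to 0.62. For *Cacna2d1* the intervals were the narrowest of the members, at -0.26 to 0.30 in hindbrain, -0.14 to 0.29 in midbrain and -0.32 to 0.20 in forebrain. For *Cacna1c* they ran from -0.46 to 0.38, from -0.42 to 0.36 and from -0.30 to 0.30.

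*Cacna1i* varied widely within regions, with a coefficient of variation of 49.7% in hindbrain, 40.9% in midbrain and 30.9% in forebrain. In forebrain it stood at 73.2, 147 and 88.0 CPM in *Fmr1*CRE and at 149.7, 101 and 161 CPM in wild-type mice. In midbrain the *Fmr1*CRE values were 42.6, 111 and 69.1 CPM and the wild-type values 147, 119 and 75.0 CPM. In hindbrain they were 15.7, 25.4 and 47.4 CPM and 20.8, 22.8 and 13.9 CPM. The genotypes overlapped in each region, with the *Fmr1*CRE mean lower in forebrain and midbrain and higher in hindbrain. The log2 fold changes were -0.39, -0.61 and 0.61, with adjusted p-values of 0.816, 0.821 and 0.883 in edgeR. In the test of whether the genotype difference varied with region, which kept the mouse as a block, *Cacna1i* had an unadjusted p of 0.0440 and an adjusted p of 0.680. That test called 0% of 20363 genes and 0 members, and 1 member had an unadjusted p under 0.05, as had 7.14% of all genes.

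Without the mice numbered 3, that interaction test called 83 genes and 1 member, *Cacna1g*. Its genotype difference in hindbrain minus that in forebrain was -1.10 on the log2 scale, with an adjusted p of 0.0487. With all mice the same term was -0.42, with an adjusted p of 0.727. *Cacna1g* stood at 151, 135 and 78.0 CPM in *Fmr1*CRE forebrain and at 87.5, 76.8 and 98.3 CPM in wild-type forebrain. Among the *Fmr1*CRE forebrain libraries it was replicate 3 that lay in the wild-type range. The forebrain genotype difference was 0.51 (confidence interval -0.07 to 1.09; adjusted p = 0.806 in edgeR), and without the mice numbered 3 it was 0.85 (adjusted p = 0.150).

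*Cacna1h* had a like arrangement in forebrain, with 66.2, 77.5 and 43.1 CPM in *Fmr1*CRE mice and 41.9, 41.1 and 61.3 CPM in wild-type mice. The genotypes overlapped only through the libraries numbered 3. The difference of *Cacna1h* was 0.41 (confidence interval -0.17 to 0.997; adjusted p = 0.809 in edgeR), and 0.84 (adjusted p = 0.139) without the mice numbered 3. Overlap only through these libraries was also seen in forebrain for *Cacna1a*, otherwise higher in *Fmr1*CRE mice. It was seen too for *Cacna1b*, *Cacna1e* and *Cacna2d1*, otherwise lower in *Fmr1*CRE mice. How many of all genes had this arrangement was not counted.

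On counts added over the regions of each mouse, edgeR called 0.00451% of 22191 genes and 0 members, with 0 members at an unadjusted p under 0.05, where 3.7% of all genes were. The members' log2 fold changes ran from -0.35 for *Cacna1i* to 0.21 for *Cacna1h*. The sums of *Cacna1h* did not overlap between genotypes, as was so for 7.94% of all genes, with an interval from -0.01 to 0.44 and an unadjusted p of 0.0631. The intervals of all 10 members in these sums included 0, and the narrowest was that of *Cacna2d1*, from -0.14 to 0.20.

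**Figure D4:**
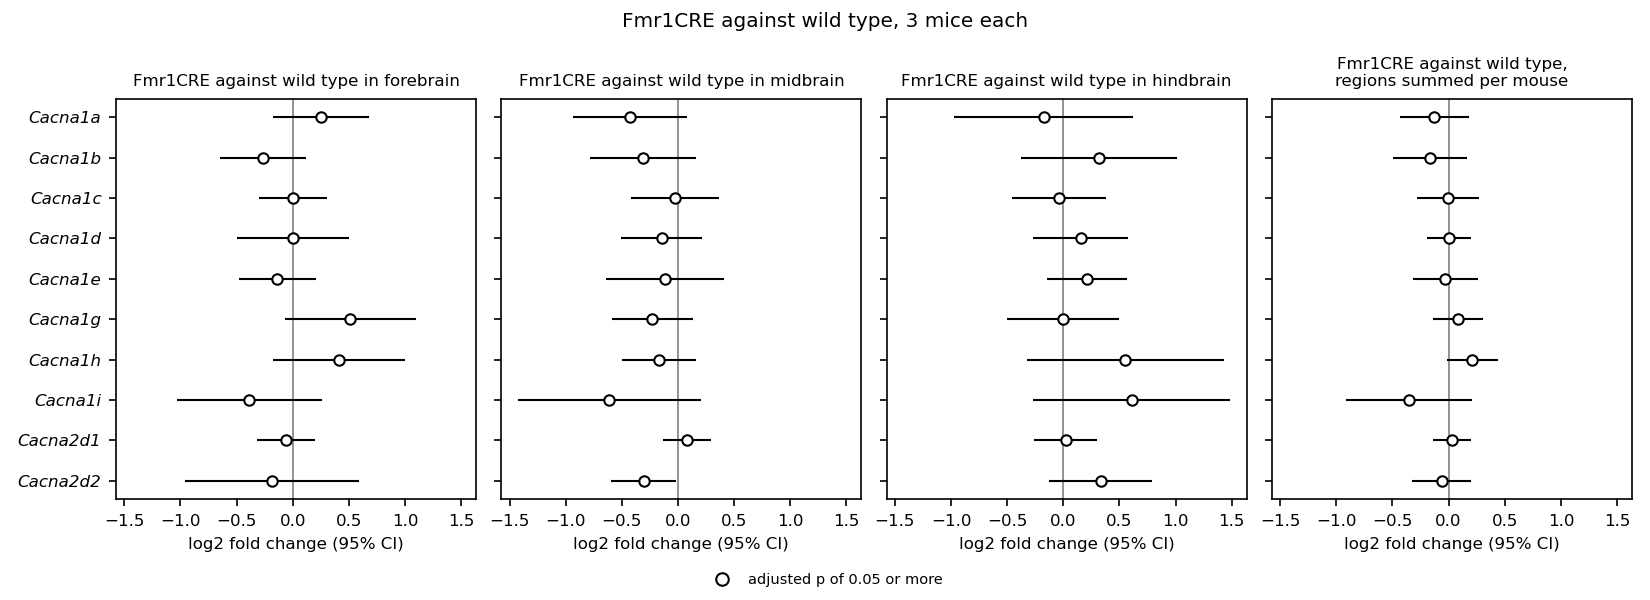
Log2 fold changes of *Fmr1*CRE against wild type (horizontal axis, the same in all panels) for the 10 genes (rows) within each region and for counts summed per mouse, with 95% confidence intervals as lines, from edgeR with 3 mice a genotype. All points are open, since 0 members had an adjusted p under 0.05, and the interval of *Cacna2d2* in midbrain is the only one that leaves out 0.

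The other genes of the channel complex are the beta subunits, which bind the pore from inside the cell and bring it to the membrane, the remaining alpha-2-delta and pore genes, and the gamma subunits, several of which instead traffic AMPA receptors. Of 16 such genes 14 passed the filter, and *Cacna1f* and *Cacng1*, at or under 1.09 and 0.43 CPM, did not. Forebrain against hindbrain, 9 of the 14 were higher, 2 lower and 3 did not pass, with a median log2 fold change of 0.80. Over all genes 25.7% were called higher and 24.4% lower. Midbrain against hindbrain, 6 were higher, 1 lower and 7 did not pass, with a median of 0.37, where 24.6% and 22.9% of all genes were higher and lower. Forebrain against midbrain, 3 were higher and 0 lower, where 17% of all genes passed, 47.4% of them higher in forebrain.

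The beta subunits differed in the same comparison of forebrain with hindbrain. *Cacnb3* was at 184 to 244 CPM in forebrain and at 29.1 to 48.3 CPM in hindbrain, without overlap, a log2 fold change of 2.45 (adjusted p = 1.22e-09 in edgeR). *Cacnb1* was higher by 1.85 and *Cacnb4*, the subunit mutated in lethargic mice, by 0.72, while *Cacnb2* differed by 0.03 with an adjusted p of 0.860. *Cacng3*, a gamma subunit of the AMPA receptor kind, had the largest difference of the list at 3.32, and *Cacng8* was higher by 1.94. *Cacng2*, the stargazin gene, was lower in forebrain, at -0.24 (adjusted p = 0.0387 in edgeR), as was *Cacna2d4* at -0.72 (adjusted p = 0.0169). *Cacna2d3*, another alpha-2-delta gene, was at 81.8 to 109 CPM in forebrain and 48.1 to 74.0 CPM in hindbrain, higher by 0.66.

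**Figure D5:**
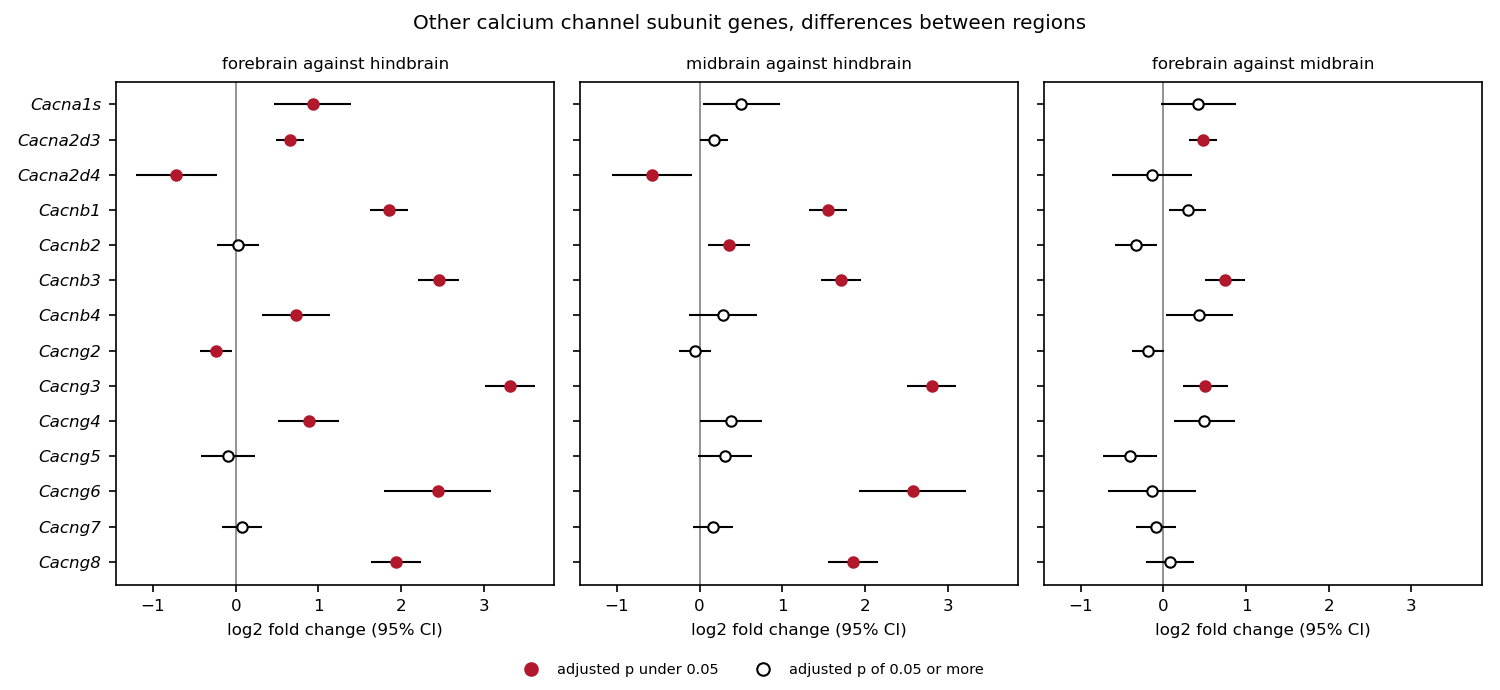
Log2 fold changes between regions (horizontal axis, the same in all panels) for the 14 other calcium channel subunit genes that passed the filter (rows), with 95% confidence intervals as lines, from edgeR over 6 mice. Filled red points have an adjusted p under 0.05, which are 9 higher and 2 lower in forebrain than in hindbrain, and *Cacng3* lies farthest out at 3.32.

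At the release site, Cav2 channels are held by active zone scaffolds and bind the SNARE proteins. Of 15 genes for such partners, 13 were higher in forebrain than in hindbrain and 2 lower, with a median of 1.25. In midbrain 13 were higher and 2 lower than in hindbrain. Over all genes 25.7% were higher and 24.4% lower in forebrain than in hindbrain, and 24.6% and 22.9% in midbrain. *Stx1a*, a SNARE protein of the plasma membrane, was higher in forebrain by 3.91 and *Rims1*, which tethers channels at the active zone, by 2.62. Those lower in forebrain were *Unc13c*, a priming factor of cerebellar granule cells, at -0.79 (adjusted p = 0.000455 in edgeR), and *Snap25*, another SNARE protein, at -0.31 (adjusted p = 0.00100). Cerebellar granule cell markers (6 genes) were at 116 to 170 CPM in forebrain and 695 to 1435 CPM in hindbrain, and their part was not tested.

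Of 26 genes of calcium handling and calcium-activated channels, 17 were higher in forebrain than in hindbrain, 5 lower and 4 did not pass. Their median was 0.40, and over all genes 25.7% were higher and 24.4% lower. The 5 lower ones were the calcium buffers *Pvalb* at -3.35, *Calb2* at -1.86 and *Calb1* at -1.36, the calcium release channel *Itpr3* at -0.54 and the calcium pump *Atp2b3* at -0.36. Among the higher ones were the pump *Atp2b1*, by 2.04, and the sodium-calcium exchanger *Slc8a2*, by 2.51. Midbrain against hindbrain, 14 were higher and 3 lower (24.6% and 22.9% of all genes). Forebrain against midbrain, 4 were higher and 7 lower, where 17% of all genes passed, 47.4% of them higher in forebrain. In all 3 lists 0 genes passed between genotypes in any region, in the sums or in the interaction test, in edgeR.

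Across the 18 libraries, the log2 CPM of the 6 members that were low in hindbrain had Pearson correlations between 0.67 (*Cacna1e* and *Cacna1h*) and 0.95 (*Cacna1c* and *Cacna2d1*), which include the regional difference by which the 6 were picked. As deviations from the mean of the same region and genotype, their correlations ran from -0.21 for *Cacna1e* and *Cacna1h* to 0.67 for *Cacna1c* and *Cacna1e*, and that of *Cacna1c* and *Cacna2d1* was 0.11. By the same measure *Cacna1a* ran with *Cacna1c* at 0.71 and with *Cacna1g* at 0.69, and *Cacna1d* with *Cacna1g* at 0.74, while *Cacna1g* and *Cacna2d1* ran against each other at -0.59. These are descriptions over 18 libraries of 6 mice, which share mouse, library depth and composition.

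Among all genes that passed the filter, those most like the members over the 18 libraries were *Rprm* (r = 0.996), *Syt1* (0.996) and *Grin2a* (0.995) for *Cacna2d1*, *Numbl*, *Klhl3* and *Sema6b* for *Cacna1c* (0.976 to 0.982) and *Sort1*, *Apba1* and *Astn1* for *Cacna1b* (0.975 to 0.977). Among the members that did not pass between regions, the closest were *Ppfia4* for *Cacna1a* (0.896), *Cpsf7* for *Cacna1g* (0.922) and *Plch2* for *Cacna1d* (0.779). The closest were *Adgrb2* for *Cacna1h* (0.962), *Dlgap4* for *Cacna1i* (0.959) and *Sgta* for *Cacna1e* (0.944). For *Cacna1a* and *Ppfia4* the correlation of the deviations within groups was 0.965, higher than that of the levels.

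A measure of base composition in each library moved with the spread of some members and not of others. The longest transcript of *Cacna1h* was 60.0% G or C, higher than that of 95.7% of genes. That of *Cacna2d1* was 40.7%, higher than that of 11.5%. Deviations here were taken from the mean of the 6 libraries of a region, both genotypes together. In each library the mean deviation of GC-poor genes (the lowest 10% of GC content, up to 40.2%) was subtracted from that of GC-rich genes (the highest 10%, from 57.6%), a measure chosen after the values were seen. It ran from -0.33 in *Fmr1*CRE forebrain replicate 1 to 0.36 in *Fmr1*CRE hindbrain replicate 2. Over the 18 libraries the deviations of *Cacna2d2* correlated with it at 0.82, those of *Cacna1b* at 0.70, *Cacna1c* at 0.65 and *Cacna1a* at 0.50. The members highest in GC content were *Cacna1h* (60.0%) at 0.34, *Cacna1i* (59.3%) at 0.44, *Cacna1a* (58.4%) at 0.50 and *Cacna1g* (58.1%) at 0.07. *Cacna2d2* was 55.8% G or C. For the others the correlation was 0.35 in *Cacna1e*, 0.10 in *Cacna2d1* and 0.01 in *Cacna1d*. *Fmr1*CRE forebrain replicate 1 was the lowest forebrain library for *Cacna2d2*, and *Fmr1*CRE hindbrain replicate 2 the highest hindbrain library for *Cacna1b* and *Cacna2d2*. In midbrain the measure was -0.21, -0.06 and 0.01 in *Fmr1*CRE mice and 0.29, 0.16 and -0.18 in wild-type mice. Its part in the differences above was not tested.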

How the data were processed

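Poly(A) RNA was sequenced with single-end reads of 50 bases. According to the submitters' processing notes and the study's methods, the authors quantified transcripts against mm10 with Salmon 0.14.0 in a bcbio_nextgen workflow and imported them into DESeq2 1.30.1. The deposited table holds Salmon estimates that the authors summed per gene as whole-number counts for 18 libraries, which total 22455512 to 28061185. The deposited transcript tables hold TPM, estimated counts and effective lengths, and were used here only for lengths and transcript shares over all 18 tables together, with no table assigned to a group. A table of variance-stabilized log2 values was not used here. The strand setting of the counting was not given in the sources used here.

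Counts were tested with edgeR 4.0.16 (TMM, filterByExpr, quasi-likelihood test) in R 4.3.3, with Benjamini-Hochberg adjustment over all genes that passed and a threshold of 0.05. Regions were compared over 18 libraries with the mouse as a block, because the labels give the same mouse number in each region. Genotypes were compared within each region (6 libraries), on sums per mouse, and by an interaction test with region. Replicates are separate mice of 1 litter. CPM used TMM-scaled library sizes, and log2 CPM a prior count of 2. The levels of a gene in a library carry counting error, which intervals over mice include. Deviations of same-numbered mice of the 2 genotypes correlated between -0.12 and 0.07. Those of the same mouse in different regions correlated only between -0.17 and 0.18. The check could therefore not show whether the number paired genotypes. For the mice numbered 3, the correlations of forebrain with the other regions ran from -0.17 to -0.02. Those of their midbrain with hindbrain were 0.05 and 0.04. In the mice numbered 1 and 2, the correlations of forebrain with the other regions ran from -0.03 to 0.18. What set these apart was not tested. Alternatives were DESeq2 1.42.0, other scalings and filters, each mouse left out, both mice numbered 3 left out, each genotype alone, blocks added or removed, 1 fit of all libraries, and other gene lengths. The scripts were tested on simulated data.

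The members and gene lists were chosen with earlier results of these data known. The rule for named genes took the 10 members, *Fmr1*, the cell type markers, 3 lists of other calcium channel genes, release-site partners and calcium handling genes, and the 3 genes of highest Pearson correlation with each member over 18 libraries. The list genes given with values were picked after the values were seen. A result under this rule is not reported here. The GC measure, the shared runs and the transcript shares were chosen after the data were seen. Genes were placed with GENCODE M21 on GRCm38.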

Additional observations from a re-analysis of the deposited data

Results flagged for a closer look

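In forebrain, the *Cacna1e* level of wild-type replicate 1 stood apart from the other libraries. It was 234 CPM, and the other 5 lay between 159 and 177 CPM. In log2 CPM, its gap to the nearest library was 0.723 of the range of the 6 libraries, above the limit of 0.625 used for 6 samples. The 10 members in 3 regions gave 30 such groups, of which chance alone sets apart about 1 in 20, and this was the only one. Without that mouse *Cacna1e* still passed between forebrain and hindbrain.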

How the results depend on the processing

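The 6 members higher than in hindbrain kept their direction and an adjusted p under 0.05 in all alternatives run for both comparisons, except *Cacna1e* between forebrain and hindbrain in *Fmr1*CRE mice alone. Between forebrain and midbrain, DESeq2 called 1 member, and leaving out each mouse gave 0 to 1. Total counts alone called 2 members, and 3936 of 20363 genes. Between genotypes 0 members passed in a region or in the sums under any alternative, and the interaction test called 1 without both mice numbered 3. Between forebrain and midbrain, 10 members under 15 alternatives gave 150 values, of which 19 had the opposite sign. The causes were not tested.

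Counts of all genes moved more. Between forebrain and midbrain the count was 3464, 2089 without both mice numbered 3, 1261 in wild-type mice only and 182 in *Fmr1*CRE mice only. In *Fmr1*CRE mice only it was 5933 between forebrain and hindbrain and 4565 between midbrain and hindbrain, with fewer samples. DESeq2 called 31 genes between genotypes in forebrain, 62 in midbrain, 59 in hindbrain, 26 in the sums and 72 in the interaction. With no filter on low counts the counts were 11 in midbrain, 11 in hindbrain, 4 in the sums and 2 in the interaction, and with at least 10 counts in every library 0 in midbrain. Leaving out each mouse gave 0 to 4 in midbrain, 0 to 5 in hindbrain, 0 in the sums and 0 to 4 in the interaction. Without both mice numbered 3 they were 3 in midbrain, 1 in hindbrain, 0 in the sums and 83 in the interaction. With 1 fit of all 18 libraries they were 0 in midbrain and 1 in each of the other regions. With the replicate number as a block, the sums gave 0 genes. Removing the mouse block between regions changed 1 member call, that of *Cacna2d2* between midbrain and hindbrain (0.50, adjusted p = 0.0446 in edgeR).

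The per-length values of *Cacna1a* depended most on the length used. In the order hindbrain, midbrain, forebrain, its share was 31.3%, 19.8% and 18.8% with the union of exons, 33.9%, 22.2% and 21.4% with the longest transcript, and 27.7%, 17.2% and 17.0% from counts without length. Its level was 27.0, 34.1 and 26.7 with the union of exons and 33.2, 41.2 and 33.1 with the longest transcript. With 3 mice a genotype, the precision of the genotype differences is that of the printed intervals.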
